A study of Mus musculus with 10 samples.

Results

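The genes described here encode the proteins of the cytosolic ribosome. Members were chosen by name alone: every gene present in both deposited gene lists under the same Ensembl identifier whose symbol is Rpl or Rps with a number (and an optional paralog letter), or Rplp0, Rplp1, Rplp2 or Rpsa, with pseudogene symbols left out. The rule found 83 genes of 30406 shared genes, 51 of the large subunit and 32 of the small subunit. They were measured by droplet single-cell RNA sequencing, which counts messenger RNA molecules through unique molecular identifiers (UMIs), in male C57BL/6N mice over 2 months old, from tissue of the medial prefrontal cortex (mPFC). All mice had been ranked by the tube test, in which 2 mice meet head to head in a narrow tube and the mouse that backs out loses. The compared groups were the dominant mice (rank 1, 5 libraries) and the subordinate mice (rank 4, 5 libraries), each library holding the pooled tissue of 2 or 3 mice, punched 1 day after the last test and dissociated with papain at 37 °C. Both groups were tube-tested and dissociated alike, and no group without the test was used.

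Each ribosomal protein is normally made from a single-copy gene and is needed in equal number with its partners, the large subunit carrying out peptide bond formation and the small subunit reading the messenger RNA. Their messages usually start with a run of pyrimidines at the cap, the terminal oligopyrimidine (TOP) motif, through which mTOR and LARP1 hold back or release their translation together with that of elongation factors. In brain, ribosomal protein messages are found in cell bodies and also in axons and dendrites, where local translation takes place. A few members have paralogs that can replace them in part of the ribosomes, and these are described beside their partners.

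The 10 libraries held between 4442750 and 29278466 UMIs, and 45864 cells remained after filtering, with library medians of 1327.5 to 2674.5 UMIs per kept cell, and 9 cell classes could be tested. Replicates 1 to 3 of each rank carried a gene list of 31053 genes and replicates 4 and 5 a list of 32285 genes, so the 2 sets of libraries differ in their processing. The replicate 1 libraries of both ranks stood apart: their lowest barcode held 739 and 1037 UMIs against 500 to 501 in the others, and they had the highest ribosomal protein share of their rank. Rank 4 replicate 1 also had the highest mitochondrial share, 9.6% of its UMIs against 4.3% to 7.7% elsewhere. Libraries within replicates 1 to 3 shared 6 to 104 cell barcodes per pair and libraries within replicates 4 and 5 shared 7 to 44, while pairs across the sets shared 0 to 4. Results that rest on replicate 1 are given with and without it. Of the 83 members, 80 had enough counts to be tested. Rpl3l (32 UMIs), Rpl39l (18 UMIs) and Rpl10l (2 UMIs), paralogs known mainly from muscle and testis, were not tested. Over all kept cells a count of 3 UMIs corresponds to 0.0271 CPM (counts per 1000000 UMIs), and Rpl10l was below it.

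Ribosomal protein messages took up more of the RNA in vessel cells and microglia than in neurons. Endothelial cells gave 8.48% ± 1.59 of their UMIs to the members (SD, n = 10 libraries), microglia 7.47% ± 3.28 (n = 10) and smooth muscle cells 7.45% ± 1.42 (n = 8). Excitatory neurons gave 2.61% ± 0.732 and inhibitory neurons 2.51% ± 0.610 (SD, n = 10 each), with libraries from 1.90% to 4.40% and from 1.58% to 3.89%. The ranges of the endothelial libraries (6.65% to 11.1%) and of either neuronal class did not overlap. Between these lay pericytes (5.32% ± 1.30), oligodendrocyte precursors (4.49% ± 1.01), oligodendrocytes (3.85% ± 1.01) and astrocytes (3.44% ± 1.11; SD, n = 10 each). These are shares of each class's UMIs, so they do not give molecules per cell.

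**Figure D1:**
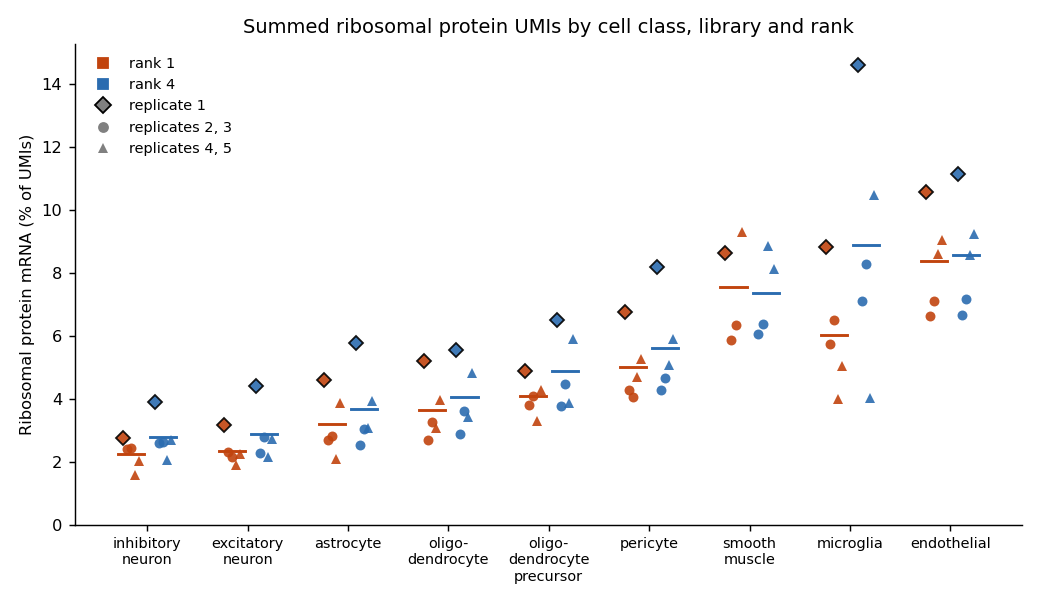
Percent of UMIs from the 83 ribosomal protein genes (vertical axis) in each cell class, with a point for each library, colour for rank, a diamond for replicate 1 and a bar for the mean of each rank. Endothelial libraries lay between 6.65% and 11.1% and excitatory neuron libraries between 1.90% and 4.40%, and replicate 1 of rank 4 was the highest excitatory neuron library.

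Neighbours in this order were not all separable. Within a library, smooth muscle exceeded pericytes in 8 of 8 libraries, precursors exceeded oligodendrocytes in 9 of 10, oligodendrocytes exceeded astrocytes in 9 of 10 and astrocytes exceeded excitatory neurons in 10 of 10. Endothelial cells exceeded microglia in only 6 of 10 libraries, microglia exceeded smooth muscle in 5 of 8, and excitatory exceeded inhibitory neurons in 7 of 10. Among excitatory neurons, layer 5/6 near-projecting cells (2.80% ± 1.06, n = 8) and layer 6 corticothalamic cells (2.69% ± 0.779, n = 8) were followed by layer 2/3 intratelencephalic cells (2.52% ± 1.00, n = 10). Layer 5 intratelencephalic cells (2.09% ± 0.727) and layer 5 pyramidal tract cells (1.99% ± 0.742; SD, n = 10 each) were lowest. Within a library the order of these means was not always kept: near-projecting cells exceeded corticothalamic cells in 4 of 7 libraries and corticothalamic cells exceeded layer 2/3 cells in only 2 of 8. Layer 2/3 exceeded layer 5 intratelencephalic cells in 9 of 10 libraries, and these exceeded pyramidal tract cells in 9 of 10. In cells of 1000 to 2000 UMIs only, a range chosen after seeing that classes differ in depth, the share was 8.23% ± 1.48 in endothelial cells, 6.73% ± 2.44 in microglia and 3.17% ± 1.85 in excitatory neurons.

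Gene by gene, nearly every member was lower in neurons and higher in endothelial cells, smooth muscle and microglia at the adjusted p, while few passed in pericytes. Each class was compared with the mean of the other classes in a single edgeR quasi-likelihood fit over all genes with the library as a block, and a gene was counted where its Benjamini-Hochberg adjusted p was under 0.05 and its change at least 2-fold. The members themselves were left out of the genes that defined the clusters. Of 80 members, 50 were higher in endothelial cells (14% of all genes tested passed in this direction), 37 in microglia (background 12.5%) and 12 in smooth muscle (background 10.6%). Lower by the same rule were 38 members in excitatory neurons (background 16.9%) and 59 in inhibitory neurons (background 16.1%). When both neuronal classes were set against glia and vessel cells, 67 members were lower (background 17.6%) and the members' median log2 fold change was -1.21, against 0.06 over all genes tested. At the adjusted p alone all 80 members were lower in excitatory (background 33.9%) and in inhibitory neurons (32.1%). Higher by that rule were 79 members in endothelial cells (background 29.5%), 79 in smooth muscle (15.9%) and 78 in microglia (24.2%).

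**Figure D2:**
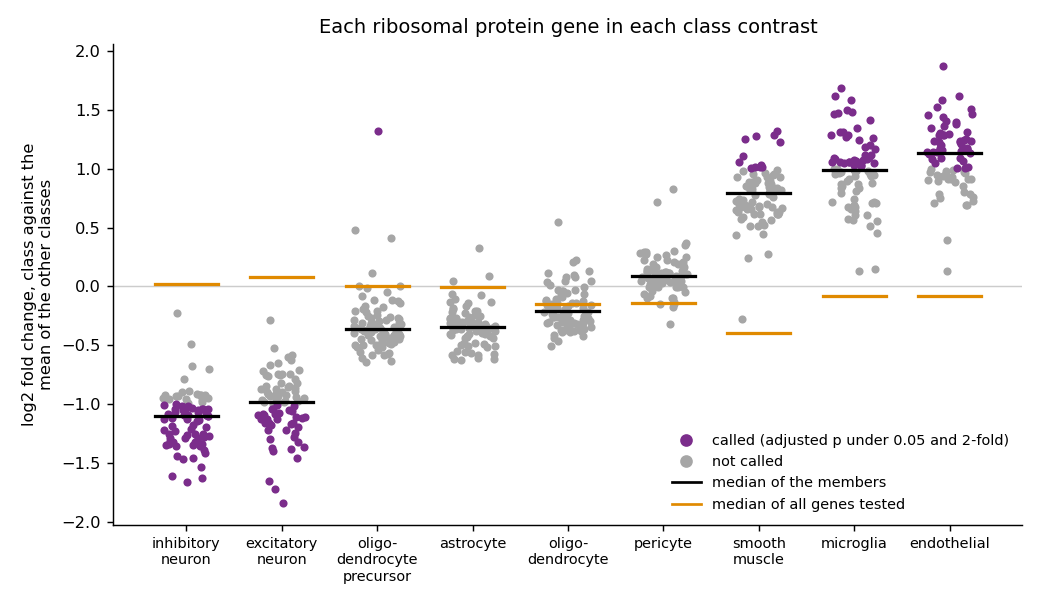
Log2 fold change of each tested ribosomal protein gene (points) in each cell class against the mean of the other classes, with purple for genes past adjusted p 0.05 and 2-fold, a black bar for the members' median and an orange bar for the median of all genes tested. The members' medians run from -1.10 in inhibitory neurons to 1.14 in endothelial cells, and Rpl13 is the only member past the threshold in oligodendrocyte precursors.

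The members of the ribosomal stalk, which recruits translation factors, followed this order with different reach. Rplp0, the stalk base, had 121 to 219 CPM in excitatory neurons (median 151, n = 10) and 730 to 1175 CPM in smooth muscle (median 1006, n = 8). The libraries of these 2 classes did not overlap, and the log2 fold change was -1.72 (SE 0.14, adjusted p = 4.13e-20) in excitatory neurons and 1.28 (SE 0.13, adjusted p = 5.63e-14) in smooth muscle. Its partners Rplp1 and Rplp2, which form the flexible arms, were lower in excitatory neurons by smaller log2 amounts of -0.72 and -0.92, and Rpl12 at the stalk's foot by -0.76. The largest change of Rplp1 was in microglia, with a log2 fold change of 1.50.

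On the small subunit, Rps9, which lies near the messenger RNA entry side, was among the 3 members with the largest change in both neuronal classes and in microglia. It had 171 to 310 CPM in excitatory neurons (median 228, n = 10) and 628 to 2416 CPM in microglia (median 1277, n = 10), with no overlap. Its log2 fold change was -1.66 in excitatory neurons (SE 0.12, adjusted p = 1.29e-23), -1.63 in inhibitory neurons (SE 0.12, adjusted p = 6.04e-22) and 1.62 in microglia (SE 0.09, adjusted p = 2.22e-29). Rps29, a zinc-binding protein of the head and the member with the most UMIs, reached the largest change in microglia, 1.69 (SE 0.10, adjusted p = 6.29e-28). Its microglial libraries spanned 1157 to 6090 CPM (median 3356, n = 10), so the level within the class varied several-fold among libraries. Rps14 and Rps19, both known from inherited or acquired anaemias when their dose falls, rose in endothelial cells by 1.62 and 1.59, and Rps14 fell by 1.61 in inhibitory neurons. Rps6, the substrate of S6 kinase, had log2 fold changes of -1.16 in excitatory neurons and 1.36 in endothelial cells. Rps2 was the only one of these whose highest change was in smooth muscle, at 1.29 (SE 0.10, adjusted p = 1.88e-19).

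On the large subunit, Rpl13 was the only member that passed both thresholds in oligodendrocyte precursors (1 of 80, background 10.6%). At the adjusted p alone 61 members were lower there (background 25.8%) and 3 higher (background 28.3%). There its libraries held 2940, 3751, 4842, 2906 and 3168 CPM in rank 1 and 3507, 3922, 4788, 2950 and 5687 CPM in rank 4, against 645 to 1230 CPM in astrocytes. The lowest precursor library was above the highest astrocyte library, and the log2 fold change was 1.32 (SE 0.09, adjusted p = 8.95e-24) while the median over members in that class was -0.36. Rpl13 made up 8.77% of the ribosomal protein UMIs of precursors. Its gene body is overlapped on the same strand by the annotated gene Gm20388, which is not in the shared gene list, and reads of the pair were not separated here.

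Rpl38, known for its part in the selective translation of Hox messages in the mouse embryo, was the member most raised in endothelial cells. Its 10 endothelial libraries held 1610 to 3150 CPM (median 1945), above the 10 excitatory neuron libraries at 278 to 827 CPM (median 482). The log2 fold change was 1.87 (SE 0.08, adjusted p = 2.74e-38). In pericytes, the neighbouring vessel cells, Rpl38 was below the mean of the other classes (-0.32, adjusted p = 0.00849), with libraries at 341 to 1251 CPM. Its lowest class mean was that of excitatory neurons, at 540 CPM. Rpl10, on the X chromosome, was raised in microglia (1.47) and smooth muscle (1.32). Rpl5 and Rpl11, which with 5S RNA can bind Mdm2, changed by 0.96 and 0.92 in endothelial cells and by -0.75 and -0.87 in excitatory neurons. Rpl4, Rpl17 and Rpl39, which line the exit tunnel, changed by -0.90, -0.87 and -1.10 in excitatory neurons.

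Astrocytes, oligodendrocytes and pericytes had no member past both thresholds in either direction (backgrounds 12.8%, 8.7% and 9.03% higher, 9.76%, 11.1% and 6.15% lower). At the adjusted p alone 66 members were lower and 1 higher in astrocytes (backgrounds 31.2% and 32.9%). The counts were 32 lower and 1 higher in oligodendrocytes (backgrounds 23.4% and 18.7%), and 1 lower and 9 higher in pericytes (backgrounds 18.1% and 16.2%). The member higher in oligodendrocytes was Rpsa, which also serves as a laminin receptor, at a log2 difference of 0.55 (SE 0.09, adjusted p = 5.98e-07) and 251 to 1174 CPM across 10 libraries. Its astrocyte libraries, at 144 to 555 CPM, overlapped these.

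Marker messages of excitatory neurons were present in every class: the 7 markers summed to 64 to 1503 CPM in microglia and 58 to 934 CPM in endothelial cells, against a mean of 2370 CPM in excitatory neurons, with none of the 7 at 0. Their part in the class differences was not tested. Leaving out both replicate 1 libraries, an alternative chosen after seeing the data, gave 55 higher members in endothelial cells, 32 in microglia, 24 in smooth muscle and 73 lower in neurons together. Over all alternatives the microglial count ranged from 9 with total-count scaling to 70 with a stricter cell filter. The inhibitory neuron count of 59 was 33 to 37 under the 4 other scalings or tools. With rank 4 libraries only, 17 members passed in excitatory neurons, 26 in endothelial cells and 33 in inhibitory neurons. The microglial count was 23 without rank 4 replicate 3, and the smooth muscle count was 7 without rank 4 replicate 2, 20 without rank 1 replicate 1 and 21 without rank 4 replicate 1.

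The difference between the members of a paralog pair was not tested. Rps27l, a p53-inducible paralog of Rps27, was the member lowest in excitatory neurons relative to other classes, at -1.84 log2 (SE 0.11, adjusted p = 8.22e-28). Its excitatory neuron libraries held 20.2 to 56.7 CPM (median 40.6) and its pericyte libraries 79.3 to 286 CPM (median 224), without overlap. In microglia, where Rps27 rose (1.31, adjusted p = 7.17e-23), Rps27l was at 0.13 (adjusted p = 0.363). As a share of the UMIs of the pair, Rps27l made up 20.2% ± 4.8 in oligodendrocyte precursors and 5.96% ± 2.88 in microglia (SD, n = 10 each).

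Rpl22l1, which can take the place of Rpl22, varied least over classes of all tested members, with a coefficient of variation of 24.5% against a median of 45.1%. Its log2 fold change was -0.29 in excitatory neurons (adjusted p = 0.00115) where that of Rpl22 was -1.09 (adjusted p = 1.26e-14). Rpl22l1 held 149 to 404 CPM in excitatory neurons (median 229) and 185 to 492 CPM in endothelial cells (median 307), ranges that overlapped. Rpl22 held 78.2 to 162 CPM in the former and 219 to 666 CPM in the latter, without overlap. The paralog supplied 72.1% ± 7.7 of the pair's UMIs in inhibitory neurons and 68.4% ± 7.5 in excitatory neurons but 43.9% ± 14.2 in endothelial cells (SD, n = 10 each). Each UMI stands for the end of 1 transcript, so these shares are not scaled by transcript length. Rpl7l1, a paralog of Rpl7 that acts in ribosome assembly, was lower in neurons together (-0.61) and slightly higher in astrocytes (0.33) and oligodendrocyte precursors (0.41). It supplied 19.9% of the pair's UMIs in precursors, 17.5% in excitatory neurons and 6.41% in endothelial cells.

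**Figure D3:**
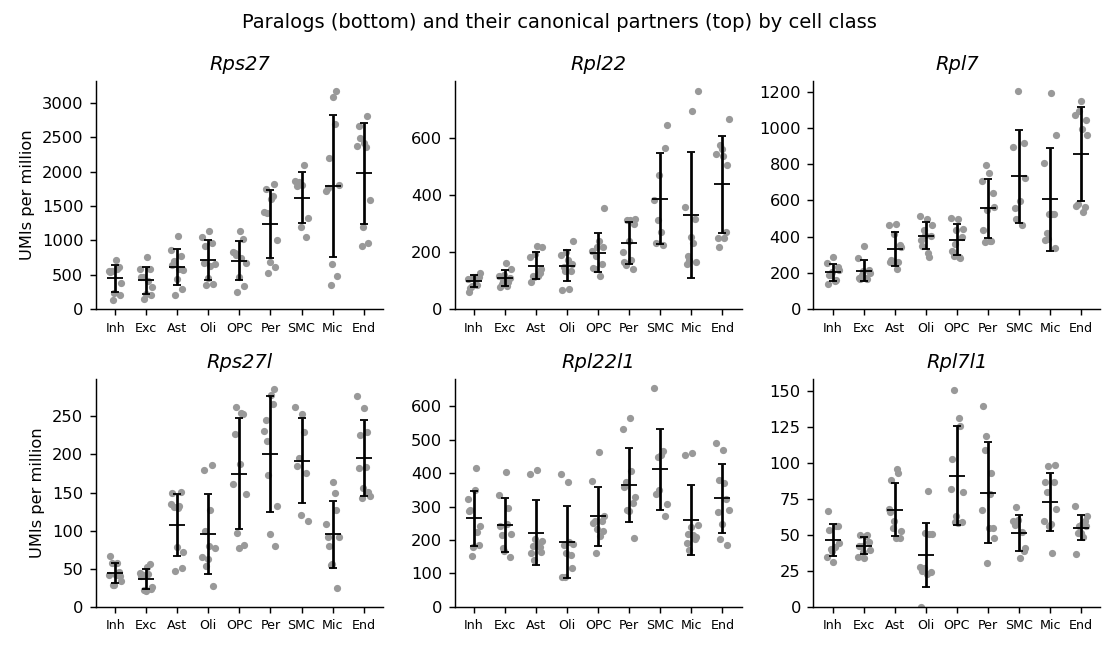
CPM (vertical axes, each from 0) of 3 canonical ribosomal protein genes (top) and their paralogs (bottom) in inhibitory (Inh) and excitatory (Exc) neurons, astrocytes (Ast), oligodendrocytes (Oli), their precursors (OPC), pericytes (Per), smooth muscle (SMC), microglia (Mic) and endothelial cells (End), with a point for each library and bars for the mean and SD. Rps27 and Rpl22 are higher in endothelial cells than in neurons, Rpl22l1 stays between 195 and 411 CPM on average, and Rps27l is at 95.0 CPM in microglia and 200 CPM in pericytes.

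The start sites of these genes were read from the RefSeq promoter table (GRCm38.p6), because the TOP motif lies there. The table held 63 of the 83 members. The search took the C nearest the annotated start, within 5 bases of it, that opened a stretch of at least 5 pyrimidines, itself included. It found such a run in 29 of 63 members (46.0%), against 21.2% of 27025 genes in the table. Bases before that C could be pyrimidines too, as in Rps9 and Rpl38 below, so the whole tract can begin further upstream. The letters CCGGAA, on either strand anywhere in the promoter, were found in 26 of 63 (41.3%) against 13.6% of all genes, and TATAAA from 40 to 16 bases before the start, on the gene's strand, in 1 of 63 (1.59%) against 2.41%. The windows below are shown for members the comparisons turn on and run 5′ to 3′ on the gene's strand. They reach from 40 bases before the start to 20 bases from it. Where the search found a run, the part counted from that C is in capitals. They are Rps9 (chr7:3704001-3704060, plus strand), Rpl38 (chr11:114668540-114668599, plus), Rpl22l1 (chr3:28805468-28805527, plus), Rps27 (chr3:90213629-90213688, minus), Rps27l (chr9:66946046-66946105, plus), Rpl13 (chr8:123102310-123102369, plus) and Rplp0 (chr5:115559427-115559486, plus).
Rps9: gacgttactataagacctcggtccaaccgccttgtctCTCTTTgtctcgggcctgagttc
Rpl38: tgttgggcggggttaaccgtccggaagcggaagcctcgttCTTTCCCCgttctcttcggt
Rpl22l1: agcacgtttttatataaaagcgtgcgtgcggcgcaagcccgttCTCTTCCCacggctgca
Rps27: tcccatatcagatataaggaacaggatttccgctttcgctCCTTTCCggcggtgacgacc
Rps27l: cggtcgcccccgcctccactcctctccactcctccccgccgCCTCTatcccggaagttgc
Rpl13: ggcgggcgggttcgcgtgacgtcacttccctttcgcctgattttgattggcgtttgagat
Rplp0: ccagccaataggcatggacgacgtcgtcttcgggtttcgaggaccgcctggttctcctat
Members with and without such a run stood at both ends of the variation over classes. Of those that varied least, Rpl22l1 and Rpl31 carried one and Rpl24 and Rpl7l1 did not, and of those that varied most, Rpl38 carried one and Rpl13, Rps12 and Rplp0 did not. The median log2 fold change in neurons together was -1.24 over the 29 tested members with a run, -1.18 over the 31 without and -1.21 over the 20 with no window. Annotated starts can lie away from the cap site in use, so a missing match says only that the letters are not in this window.

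Members kept similar proportions to each other across classes. Of 720 values of a member's share of the ribosomal protein UMIs in a class, 592 (82.2%) lay within 0.25 log2 of that member's mean over classes and 25 lay more than 0.5 away. The ratio of large-subunit to small-subunit UMIs was 1.63 ± 0.08 in oligodendrocyte precursors and 1.33 ± 0.03 in endothelial cells (SD, n = 10 each). Without Rpl13 it was 1.40 ± 0.03 in precursors, 1.26 ± 0.02 in endothelial cells and 1.52 ± 0.08 in excitatory neurons, where it was 1.58 ± 0.07 with Rpl13, so that precursors were no longer above excitatory neurons. Small-subunit members had the larger median fold change in neurons and endothelial cells, -1.31 against -1.12 for the large subunit in neurons together and 1.19 against 1.01 in endothelial cells. In oligodendrocytes the large subunit had the larger one, -0.23 against -0.16, and the difference between subunits was not tested. Across the 80 members the highest class mean was 3.59 times the lowest at the median, and endothelial cells were the highest class for 51 members, microglia for 15 and smooth muscle for 11. Rpl13 (60.6%), Rps12 (60.2%) and Rplp0 (59.8%) had the highest coefficients of variation over classes, and Rpl3 (31.2%), Rpl24 (30.3%) and Rpl7l1 (30.7%) were among the lowest beside Rpl22l1.

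Genes outside the list with the most similar pattern were Eef1a1, Fau and Pfdn5, with Pearson correlations of 0.936, 0.933 and 0.916 with the summed members over 88 library-by-class points. Eef1a1 encodes an elongation factor, Fau a ubiquitin-like fusion to a small-subunit protein and Pfdn5 a prefoldin subunit. Cox7a2l, Sparc (0.824), Zfp36, Bst2, Anxa3, Msn and H3f3a (0.783) followed. The points share libraries and depth, and the median over 10588 genes was -0.117. Single members reached a median of 0.877 with the sum, and Rpl7l1 (0.148), Rpsa (0.530) and Rpl22l1 (0.559) were the lowest.

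Other genes of the translation machinery were described from lists of known function, in neurons together against glia and vessel cells. Fau and Rack1, which complete or bind the ribosome outside the naming rule, were at least 2-fold lower, with log2 fold changes of -1.25 and -1.04. Of 14 other TOP-type messages, 13 were lower (background 35.4%) and 1 higher (background 42.9%) at the adjusted p, 5 of them at least 2-fold lower, with a median of -0.90. Eef1d (-1.74), Tpt1 (-1.32) and Eif3f (-1.22) changed most. Eef1a2, the elongation factor that takes over from Eef1a1 in mature neurons, was higher by 1.47. Mean Eef1a1 still exceeded mean Eef1a2, at 534 against 342 CPM in excitatory and 566 against 325 CPM in inhibitory neurons. Of 19 tested ribosome biogenesis genes, 7 were higher (background 42.9%) and 7 lower (background 35.4%) in neurons, both near the background, with a median of 0.06. None changed by 2-fold, against 2168 of 11300 genes higher and 1992 lower. Wdr12 (0.90), Nop56 (0.81) and the RNA polymerase I factor Rrn3 (0.76) were the most raised. Among 78 mitochondrial ribosomal proteins, encoded in the nucleus for the separate mitochondrial ribosome, 11 were higher (background 42.9%) and 43 lower (background 35.4%). Their median was -0.25, and 1 was at least 2-fold lower (background 17.6%). Of 8 tested regulators, 5 were higher (background 42.9%) and 2 lower (background 35.4%), with a median of 0.44. The translation repressors Eif4ebp1 (-1.39) and Eif4ebp2 (-0.98) were lower and Rptor, the mTOR complex subunit, was higher (0.82). Single classes did not all follow. Mean Eif4ebp2 was 31.5 CPM in inhibitory neurons and 27.8 in astrocytes, but 132 in pericytes. Eif4ebp1 was at 18.9 CPM in excitatory neurons, 3.05 in oligodendrocytes and 61.3 in smooth muscle. Rptor was highest in microglia, at 67.0 ± 54.0 CPM (SD), against 58.0 in excitatory neurons.

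Between social ranks no member passed in the fit without the replicate number. The question was whether dominant and subordinate mice differ within a cell class, tested by edgeR's quasi-likelihood fit with the gene list as a covariate and Benjamini-Hochberg adjustment over all genes. Of 718 tests of a member in a class, 0 passed an adjusted p of 0.05 (0% of 61408 tests of all genes passed) and 23 had an unadjusted p under 0.05 (2.31% of all tests did). DESeq2 gave 0 and 34. In 5 excitatory subclasses 0 of 399 tests passed (background 0%), 24 at the unadjusted level (3.97% of all tests), and DESeq2 gave 0 and 15.

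Fold changes between ranks lay mostly below 0. The median log2 fold change of rank 1 against rank 4 was -0.20 over the 718 tests, with 138 above 0, and -0.27 over the 399 subclass tests, with 17 above 0, while class medians over all genes lay between -0.02 and 0.01. Microglia had the lowest member median (-0.56), followed by inhibitory (-0.30) and excitatory neurons (-0.28), and smooth muscle the highest (0.17). The summed share in microglia was 8.83%, 5.74%, 6.52%, 4.01% and 5.04% in rank 1 replicates 1 to 5 and 14.6%, 7.10%, 8.31%, 4.02% and 10.5% in rank 4, lower in rank 1 in 5 of 5 same-numbered pairs but with overlapping ranges. In excitatory neurons it was 3.16%, 2.30%, 2.15%, 1.90% and 2.25% in rank 1 and 4.40%, 2.26%, 2.80%, 2.15% and 2.73% in rank 4, also overlapping. Over all kept cells the means were 3.45% ± 1.03 and 4.23% ± 1.68 (SD, n = 5 each), a difference of -0.787 percentage points that is smaller than the spread within either rank, with rank 1 lower in 4 of 5 pairs. Median UMIs per excitatory neuron were 2909 to 3416 in 4 rank 1 libraries and 7463.5 in replicate 4, against 1654 to 3119 in rank 4. In cells of 1000 to 2000 UMIs only, the excitatory difference was -0.148 percentage points in place of -0.518, with rank 1 lower in 1 of 5 pairs in place of 4 of 5. The inhibitory difference was 0.0462 in place of -0.534, over only 2 rank 1 and 3 rank 4 libraries. In microglia it was -2.83 in place of -2.88, with rank 1 lower in 5 of 5 pairs on both measures. In oligodendrocyte precursors it was -1.35 in place of -0.824, in endothelial cells -0.706 in place of -0.167, and over all kept cells -0.599, with rank 1 lower in 5 of 5 pairs. In microglia of any depth, leaving out rank 4 replicate 1 gave a difference of -1.45, and leaving out replicate 4 of that rank gave -4.10.

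**Figure D4:**
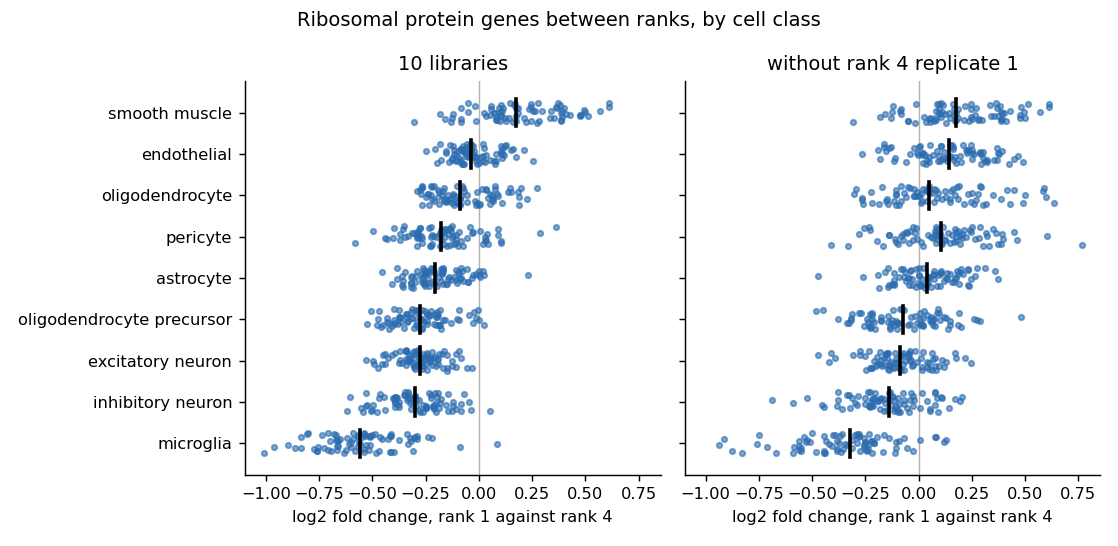
Log2 fold change of each tested ribosomal protein gene (points) between rank 1 and rank 4 in 9 cell classes, with all 10 libraries (left) and without rank 4 replicate 1 (right), and a bar for each class median. The class medians on the left run from -0.56 in microglia to 0.17 in smooth muscle, and the median over all 718 tests moves from -0.20 to 0.00 when that library is left out.

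The shift changed most when 1 library was left out. Without rank 4 replicate 1 the median was 0.00, with 362 of 719 tests above 0, and 0.04 in the subclasses. Without rank 1 replicate 1 it was -0.34 and -0.46, and without both replicate 1 libraries -0.15 and -0.15. The medians within the 5 same-numbered pairs, over classes, were -0.37, 0.00, -0.13, -0.17 and -0.23 for replicates 1 to 5, and every pair was below 0 in inhibitory neurons, oligodendrocytes and microglia, where replicate 4 was at -0.00022. The member of lowest p was Rpl36, a large-subunit protein, in inhibitory neurons. Its libraries held 258, 250.3, 268, 136 and 204 CPM in rank 1 and 374, 357, 357, 224 and 369 CPM in rank 4, so that 1 rank 4 library lay among those of rank 1. In edgeR's quasi-likelihood test its log2 fold change was -0.61 (SE 0.20, unadjusted p = 0.00628, adjusted p = 1.00).

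Same-numbered libraries deviated together, and adding the replicate number as a block changed the call for a few members. With the block 6 of 718 tests passed (background 0.234%), all lower in rank 1, without a 2-fold change. They were Rps29 (-0.62, adjusted p = 0.0331) and Rpl36 (-0.61, adjusted p = 0.0331) in inhibitory neurons, and Rps28 (-0.52, adjusted p = 0.0319), Rpl38 (-0.49, adjusted p = 0.0333), Rpl39 (-0.46, adjusted p = 0.0333) and Rpl36 (-0.46, adjusted p = 0.0364) in excitatory neurons. Rps28 held 360, 322, 273, 105 and 192 CPM in the rank 1 excitatory neurons and 488, 339, 377, 169 and 351 CPM in those of rank 4, higher in rank 4 in each pair with overlapping ranges. Rps29 in inhibitory neurons held 811, 659, 604, 284 and 527 CPM in rank 1 and 1305, 772, 792, 529 and 942 CPM in rank 4. In the subclasses 14 of 399 tests passed with the block (background 0.399%), all lower in rank 1: 8 in layer 6 corticothalamic cells, 4 in layer 5/6 near-projecting cells and 2 in layer 5 intratelencephalic cells. Rpl38 and Rps28 were among them in all 3 subclasses. Rpl31 (-0.66, adjusted p = 0.0112), Rpl41 (-0.55, adjusted p = 0.0352) and Rps28 (-0.64, adjusted p = 0.0173) passed in corticothalamic cells. Without the block these 3 genes had the lowest p in that subclass, with log2 fold changes of -0.63, -0.57 and -0.64. Without rank 4 replicate 5 that of Rps28 was -0.28 and that of Rpl41 -0.37. In near-projecting cells Rplp0 was at -0.56 without the block (SE 0.22, edgeR unadjusted p = 0.0169, adjusted p = 1.00).

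The blocked fit was repeated without the replicate 1 libraries. At an unadjusted p under 0.05 the blocked edgeR fit gave 240 of 718 class tests (background 10.2%) and 171 of 399 subclass tests (background 9.04%). With all libraries but the replicate 1 pair, an alternative chosen after seeing the data, it gave 0 of 719 class tests at the adjusted p (background 0.0653%) and 126 at the unadjusted p (background 8.17%). The log2 fold changes of the 6 class calls were about as large there: -0.65 for Rpl36 and -0.61 for Rps29 in inhibitory neurons, and -0.53 for Rps28, -0.49 for Rpl38, -0.43 for Rpl36 and -0.40 for Rpl39 in excitatory neurons. Their adjusted p ran from 0.107 to 0.198 with 4 pairs in place of 5. In the subclasses 9 of 400 tests passed (background 0.228%), all lower in rank 1, and 84 did at the unadjusted p (background 7.17%). Among them were Rpl38 (-0.88, adjusted p = 0.000248) and Rps28 (-0.95, adjusted p = 0.00684) in near-projecting cells. In corticothalamic cells Rpl38 (-0.68), Rps28 (-0.75), Rpl31 (-0.71), Rpl37 (-0.62), Rps29 (-0.61) and Rpl41 (-0.58) also passed both with and without replicate 1. No longer past the threshold were Rps28 (-0.47, adjusted p = 0.0965) and Rpl38 (-0.42, adjusted p = 0.105) in layer 5 intratelencephalic cells. The same held for Rps29 (-0.58 against -0.63 with replicate 1) and Rpl35a (-0.64 against -0.77) in near-projecting cells, and for Rps24 (-0.54 against -0.57) and Rpl35a (-0.47 against -0.56) in corticothalamic cells. Their adjusted p in edgeR was 0.0617 to 0.245, with fold changes of similar size. The blocked fit rests on 3 complete pairs in near-projecting cells and 4 in corticothalamic cells, and on 2 and 3 without replicate 1.

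The 2 sets of libraries differed for some members. With all libraries, upward calls were less frequent than over all genes and downward calls somewhat more frequent, also with same-numbered libraries summed. Replicates 4 and 5 differed from replicates 1 to 3 by at least 2-fold at an adjusted p under 0.05 in 45 of 718 tests upward (background 8.7%) and 96 downward (background 10.6%). Smooth muscle gave 23 of the upward calls from 79 members, against 174 of 1558 genes tested there. Microglia gave 32 of the downward and 0 of the upward calls from 80 members, against 794 and 742 of 5508 genes. That fit takes 6 and 4 libraries as separate samples, although same-numbered libraries deviated together. With same-numbered libraries summed, an alternative chosen after seeing the data that compares 3 numbers with 2, the counts were 5 of 720 upward (background 4.4%) and 43 downward (background 5.07%). Rpl23a, Rps6, Rpl35, Rpl31 and Rpl41 kept an adjusted p under 0.05 in excitatory neurons in that fit, from 0.00656 for Rps6 to 0.0242 for Rpl31. The gene list, the software and anything else that set these libraries apart cannot be told apart, and ranks are balanced over the sets. Rpl23a changed most, with a median log2 fold change over classes of -1.93 (range -2.84 to -1.03): over all kept cells it held 430.2 to 1260.2 CPM in replicates 1 to 3 (median 539, n = 6) and 126 to 159 CPM in replicates 4 and 5 (n = 4). Rps6 (553 to 794 against 183 to 231 CPM) and Rpl4 (343 to 491 against 128 to 168 CPM) also did not overlap. Rpl35 (-1.43), Rps27 (-1.24), Rpl31 (-1.17) and Rpl41 (-1.06) shared this direction. Rpl35 also differed within the first set: it made up 0.742% of the ribosomal protein UMIs of excitatory neurons in replicate 1, 1.92% in replicates 2 and 3 and 0.607% in replicates 4 and 5.

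Upward, Rps10 changed most, by 1.34 at the median over classes (range 0.78 to 2.63), followed by Rpsa (1.21), Rpl30 (1.07) and Rpl13a (0.94). For Rps10 the sets overlapped, and replicate 1 was high as well. Excitatory neurons held 203, 85.9 and 74.4 CPM in rank 1 replicates 1 to 3 and 298 and 354 CPM in replicates 4 and 5. In rank 4 the values were 306, 78.3 and 77.1 CPM and then 333 and 404 CPM. Rps10 made up 0.335% of the ribosomal protein UMIs of excitatory neurons in replicates 2 and 3, 0.670% in replicate 1 and 1.54% in replicates 4 and 5. Without both replicate 1 libraries the counts were 119 upward and 75 downward of 719 tests, with a member median of 0.14. Class and subclass medians over all genes lay between -0.05 and 0.14 there. The share of all genes passing was not set beside these 2 counts, so they are not a result about the members alone. The counts were also moved by leaving out rank 4 replicate 1 (70 upward), rank 4 replicate 3 (29 upward) and rank 1 replicate 5 (23 upward).

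**Figure D5:**
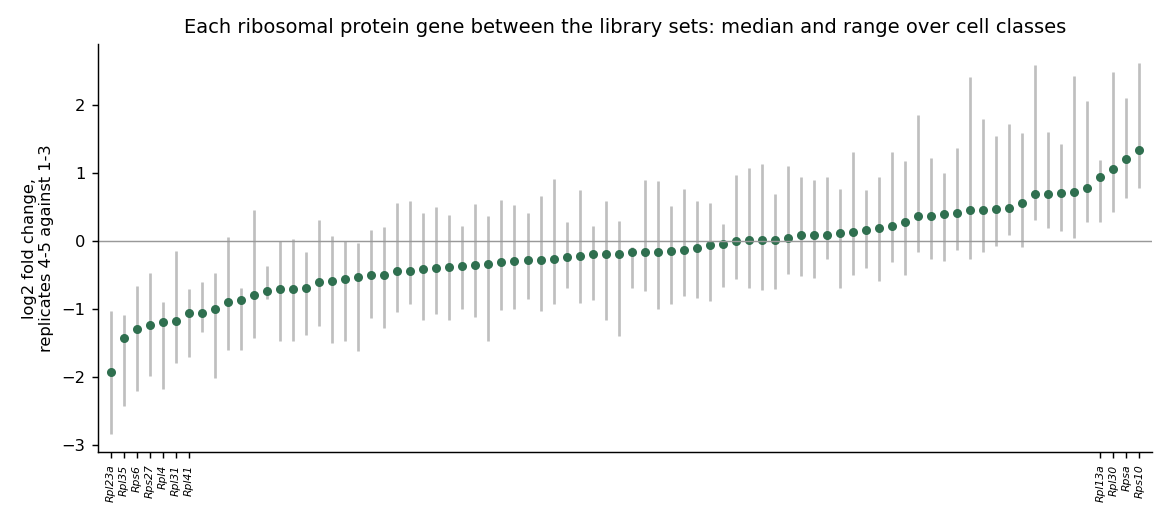
Log2 fold change of each of the 80 tested ribosomal protein genes between replicates 4 and 5 and replicates 1 to 3, with the median over 9 cell classes as a point and the range over classes as a line, ordered by the median and with the 7 lowest and 4 highest named. Rpl23a (-1.93) and Rps10 (1.34) are the ends of the order.

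Many members have near copies elsewhere in the genome that could take or share their reads. In the GENCODE annotation of GRCm38, 72 of 83 members shared at least 1 window of 50 bases in their last 300 bases with another annotated gene, 40 shared more than 50% of those windows, and Rpl36a shared all. Rpl22l1 shared 61.2% of its windows with 3 other genes, and Rps27l 13.4% with 2. The median shared part was 55.6% for the 12 members with a median change between sets over 1 log2 and 50.0% for the others, and Rpl4 shared none. On the opposite strand 23 members were overlapped by another gene of any type and on the same strand 5 (Rpl13, Rpl13a, Rpl19, Rpl24 and Rps10). Genes whose annotated type names an RNA were left out of the same-strand count, so the 2 counts are not alike. The gene that the reads came from is therefore uncertain for these 5 and for members with long shared ends, among them Rpl35 (96.0% shared), Rpl36 (89.2%) and Rpl23a (80.9%).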

How the data were processed

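The authors deposited raw UMI counts per gene and cell barcode in 10x matrices. The submitters' processing notes name Cell Ranger 4.0.0 and mm10. Per the file headers, replicates 1 to 3 were written by version 3.1.0 and the other libraries by version 4.0.0. Each version had its own gene list, and genes of both lists were used. Barcodes with at least 500 genes and at most 15% mitochondrial UMIs were kept, and doublets were removed with Scrublet (expected rate 0.06; 1 library's threshold was replaced by the median over libraries, 0.2384). Cells were clustered in scanpy 1.11.5 (2000 variable genes without ribosomal protein genes, 30 components, 15 neighbours, resolution 1), and clusters were named from fixed markers. Of 23 clusters, 3 stayed unnamed and entered no class.

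Counts were summed per library and class (at least 20 cells, at least 3 libraries per rank) and tested with edgeR 4.0.16 (quasi-likelihood, TMM scaling, filterByExpr, Benjamini-Hochberg over all genes of a contrast); DESeq2 1.42.0 was an alternative. CPM are UMIs per 1000000 UMIs of the class in a library, without TMM. The labels do not say whether same-numbered libraries share a litter or day. Deviations of same-numbered excitatory libraries from their rank's mean correlated at 0.738 to 0.889 in all 5 pairs over 10588 genes, so the numbers were taken as pairs; 4 of 5 correlated best with their own number. The highest correlation with another number was -0.0023 for replicate 1 but 0.730 to 0.885 for the others, so the numbers separate clearly only for replicate 1. The p-values measure the spread between pooled libraries. In simulated counts the rank test in excitatory neurons recovered 78.0% of 100 genes changed 2-fold and 96.9% of 97 changed 4-fold, and passed 15 of 12014 unchanged genes. Named genes were chosen by rules on the size of the change, the lowest p, the variation over classes and the paralog symbols. Others, among them Rplp1, Rplp2, Rpl12, Rpl4, Rpl5, Rpl11 and Rpl17, were named for their known role or their change after their values were seen. The members and lists were chosen with earlier results of these data known. A few genes of the lists are not reported here by name.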

Additional observations from a re-analysis of the deposited data

Results flagged for a closer look

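In 3 of 30 groups of 4 or 5 libraries tested for a library far from the others, rank 4 replicate 1 lay apart with a high ribosomal protein share. Its share was 4.40% in excitatory neurons, where the next highest rank 4 library had 2.80%, 4.00% in layer 5 intratelencephalic cells and 3.65% in layer 5 pyramidal tract cells. Chance flags about 1 in 20 groups, and both subclasses are parts of the excitatory neuron class. Rank 4 replicate 1 had the highest mitochondrial share of the 10 libraries; its part in these values was not tested.

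The gene list of replicates 1 to 3 also holds ribosomal protein pseudogenes that are not in the list of replicates 4 and 5, so they entered no comparison. Rpl27-ps3 had 864 UMIs over the 6 libraries, Rpl13a-ps1 294 UMIs, Rps12-ps3 99 UMIs and Rpl7a-ps5 38 UMIs, each above the limit of 3 counts.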

How the results depend on the processing

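Leaving out each library in turn kept every count between ranks at 0 and the median rank difference at -0.34 to 0.0019 in classes and -0.46 to 0.039 in subclasses. The summed share difference over all kept cells was -1.22 to -0.0793 percentage points. Counts of members past the threshold were 48 to 56 in endothelial cells, 35 to 53 in excitatory neurons, 57 to 71 in inhibitory neurons, 66 to 74 in neurons together, 23 to 53 in microglia, 7 to 21 in smooth muscle and 1 to 1 in oligodendrocyte precursors, and between library sets 23 to 70 upward and 71 to 115 downward.

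The replicate block gave 6 tests past the threshold between ranks in classes and 14 in subclasses, and among the rank results changed no other call, and 0 and 9 without both replicate 1 libraries; no block could be fitted between library sets, which the replicate number defines. Summing same-numbered libraries left 5 upward and 43 downward between sets. Without both replicate 1 libraries and with no block 1 subclass test passed, smooth muscle had 24 members higher and the sets 119 upward. In the subclasses the median rank difference was -0.12 with replicates 4 and 5 only and reversed to 0.039 without rank 4 replicate 1.

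With rank 4 libraries only, 26 members passed in endothelial cells, 17 in excitatory neurons, 33 in inhibitory neurons, 43 in neurons together and 5 in smooth muscle. With rank 1 libraries only, 13 passed in microglia and 36 in smooth muscle. Under other scalings inhibitory neurons had 35 (RLE), 33 (total counts), 37 (library size without ribosomal and mitochondrial genes) and 36 (DESeq2) and microglia 9 (total counts) and 14 (library size without those genes). Smooth muscle had 19 (RLE) and 23 (library size without those genes), 7 with at least 50 cells and 21 with resolution 2. These scalings moved class medians over all genes by more than 0.1 log2 (from -0.39 to 0.08 with TMM, from -0.39 to 0.25 with total counts). The stricter cell filter gave 70 in microglia, 1 higher in pericytes and 45 downward between sets, and at least 50 cells gave 19 upward. The cause was not tested. Subclass fits were not run under the stricter filter.

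Of the alternative values for counts, medians and shares that answer a comparison, 273 stayed within 1.5 times the reported count or within the spread, 40 moved and 1 reversed. The 3 untested members had too few UMIs for the filter on low counts. The simulation missed some 2-fold changes between ranks; the part of depth in that was not tested.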

Other observations

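Among single clusters, an unnamed cluster led by Cd74, H2-Ab1 and S100a8 (85 cells) gave 17.7% of its UMIs to the ribosomal protein genes, more than the microglial cluster (9.95%) and the endothelial cluster (9.15%). An astrocyte cluster led by Sfrp1, Mt2 and Gfap (720 cells) gave 7.98%, against 3.62% and 3.74% in the other astrocyte clusters; 55.6% of its cells came from the replicate 1 libraries. Another unnamed cluster, of 1504 cells, gave 8.06%, and 68.9% of its cells came from replicate 1. The inhibitory cluster led by Sst gave 2.18%, the lowest of the 23 clusters of all cells. Some clusters of excitatory neurons clustered alone lay lower, down to 1.92% in layer 5 pyramidal tract cells. These are sums over libraries with no spread, and their relation to cell state was not tested.

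Some shared features that fall outside the naming rule did not overlap between the library sets, a difference that was not tested. Rps27rt, a retrotransposed copy of Rps27, had 39.4 to 85.9 CPM in replicates 1 to 3 and 2.50 to 6.44 CPM in replicates 4 and 5. Rpl10-ps3 had 11.8 to 42.9 CPM against 1.85 to 3.18 CPM. Rpl36al, a copy of Rpl36a, overlapped at 146 to 228 against 127 to 256 CPM.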
